A study of Mus musculus with 2 samples.

Results

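miR-210 is a mouse microRNA (miRNA) made from a single hairpin, and the deposited table held a row for each of its 2 arms, mmu-miR-210-3p and mmu-miR-210-5p, called miR-210-3p and miR-210-5p here. These rows were found by name among 1214 miRNA entries. Small RNA had been sequenced from exosomes, the small vesicles that cells release, in 2 libraries. The MSC library came from exosomes of C57BL/6 mesenchymal stem cells, stromal cells that can become bone, cartilage or fat. The NIH3T3 library, the study's control, came from exosomes of NIH 3T3 cells, an immortalised fibroblast line of NIH Swiss strain. Both cell types had spent 72 hours at 37 °C in αMEM with 5% fetal bovine serum. The labels named no genetic change or drug. Tissue of origin, passage and oxygen level were not given in the sources used here, nor was any depletion of vesicles from the serum. With 1 library in each group there was no replicate, so no test was made and every difference is one between these libraries. Brackets hold 95% intervals that cover counting error only.

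miR-210 is the miRNA best known for its response to low oxygen. Hypoxia-inducible factor (HIF) binds near its gene and raises its transcription, and in human cells the 3p arm, loaded into Argonaute, represses mRNAs for mitochondrial and iron-sulfur proteins, which lowers respiration. It also targets the mRNA of ephrin-A3 in human endothelial cells, where it favours tube formation, and stromal cells release it in vesicles. A miRNA finds its targets mainly through its seed, bases 2 to 8 counted from the 5′ end. Neither library was labelled as hypoxic, so the data hold no comparison of oxygen levels.

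The hairpin gene, Mir210, lay on the minus strand of chromosome 7, at chr7:141221384-141221493 in GRCm38 (mm10). GENCODE M21 placed it between genes, with the protein-coding Rassf7 and Phrf1 on either side. The table's positions for the arms, chr7:141221407-141221428 for 3p and chr7:141221445-141221466 for 5p, matched those of RefSeq for GRCm38.p6. The mature arms are shown with the seed in capitals, because the counts below are counts of these molecules, and the hairpin with both arms in capitals, because the 2 arms are cut from it.
miR-210-3p: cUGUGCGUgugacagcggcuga
miR-210-5p: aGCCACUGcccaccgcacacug
Mir210 hairpin: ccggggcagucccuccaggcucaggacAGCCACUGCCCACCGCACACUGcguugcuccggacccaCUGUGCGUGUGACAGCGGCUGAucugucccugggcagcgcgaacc

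Each arm was 22 bases long, and 16 bases of loop separated them. In the structure of lowest energy predicted by ViennaRNA (-48.0 kcal/mol) 16 base pairs joined the arms. Among 1679 mature mouse miRNAs in the RefSeq table, none other than the arm itself had the seed of miR-210-3p or that of miR-210-5p. This held for bases 2 to 7 as well, so no seed family was there to share the targets of either arm. Both arms were rich in G and C, at 63.6% for 3p and 68.2% for 5p. Of the miRNAs that reached 100 CPM (counts for every 1000000 miRNA counts of the library) in at least 1 library, 280 of 318 matched a RefSeq sequence. Among these the median GC content was 50%, and 84.6% had less GC than miR-210-3p.

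The 7 bases complementary to the miR-210-3p seed, ACGCACA, were searched on the transcript strand in GENCODE M21 3′ UTRs of 5 mouse genes whose human counterparts are known targets. They are shown as background on what the arm can pair with, since no mRNA was measured in these libraries. Matches were found in 3 of the genes: Efna3 for ephrin-A3, Iscu for a scaffold of iron-sulfur cluster assembly, and Gpd1l for a glycerol-3-phosphate dehydrogenase-like protein. Sdhd and Ndufa4, which encode parts of the respiratory chain, had no match in the annotated 3′ UTRs. Over all 20999 genes with a 3′ UTR, 3.08% held the 7 bases in the longest one (median length 962 bases). The 5 genes were chosen as known targets and searched in every annotated 3′ UTR, so the measures differ. One 30-base stretch for each of Efna3 (chr3:89314665-89314694, minus strand), Iscu (chr5:113777968-113777997, plus strand) and Gpd1l (chr9:114900507-114900536, minus strand, 1 of its 3 matches) follows, with the match in capitals.
Efna3 site: ctgtgaagacaggacctatgcaACGCACAg
Iscu site: cacatcaaagaagctacgcaaaACGCACAc
Gpd1l site: attataaagtcccacacctaaaACGCACAg

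miR-210-3p, the functional arm, was among the most abundant miRNAs of both libraries. It had 23187 raw counts in the MSC library, which made it number 10 of the 1214 miRNA entries. In the NIH3T3 library it had 3768 raw counts and was number 16. These counts were 2.26% (Wilson interval 2.23 to 2.28) of the MSC miRNA total of 1028186 and 0.874% (0.847 to 0.902) of the NIH3T3 total of 431007. The share was thus higher in the MSC library, with intervals that did not overlap.

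miR-210-5p, the partner strand, was scarce in both. It had 50 raw counts in the MSC library, or 48.6 CPM, and 20 in the NIH3T3 library, or 46.4 CPM. Its shares of 0.00486% (0.00369 to 0.00641) and 0.00464% (0.00300 to 0.00717) overlapped. The arm ranked number 379 and number 357, and it stayed under the floor of 100 CPM that a miRNA had to reach in at least 1 library to enter the comparison of all miRNAs.

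**Figure D1:**
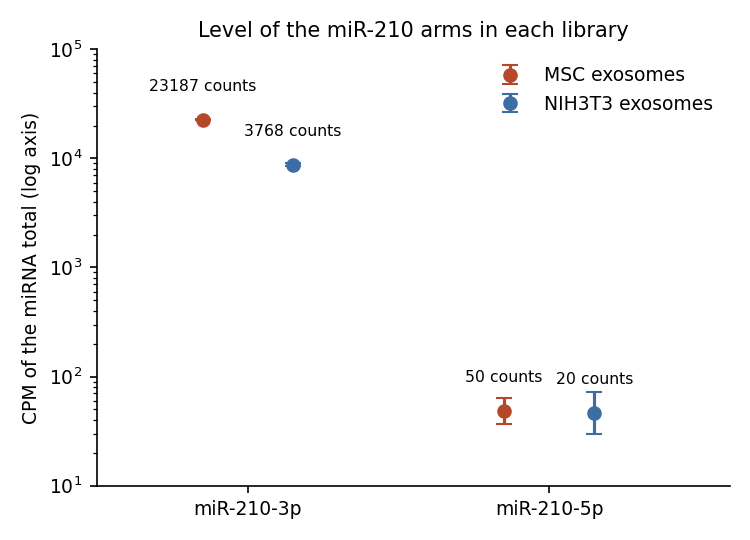
Level of miR-210-3p and miR-210-5p in the MSC and NIH3T3 libraries, in CPM of the miRNA total on a log axis, with raw counts written above and bars for 95% Wilson intervals of 1 library each. The 3p arm sits at 22551 CPM and 8742 CPM, and the 5p arm at 48.6 CPM and 46.4 CPM with overlapping bars.

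Within a library, miR-210-3p can be read against its neighbours in rank without any scaling between libraries. In the MSC library it came just below miR-16-5p, a cell cycle regulator (2.57%, 2.54 to 2.60), and miR-29a-3p, which represses collagen mRNAs (2.52%, 2.49 to 2.55). It came just above the cartilage miRNA miR-140-3p (2.05%, 2.03 to 2.08) and the smooth muscle and stromal miR-145a-5p (1.77%, 1.74 to 1.79). The share of miR-210-3p lay outside the intervals of all 4.

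In the NIH3T3 library the entries just above it were miR-125b-5p (1.33%, 1.29 to 1.36) and miR-186-5p (1.23%, 1.20 to 1.27), and those just below were miR-143-3p (0.856%, 0.829 to 0.884), which is transcribed together with miR-145a, and miR-378a-3p (0.832%, 0.805 to 0.860), encoded within the metabolic coactivator gene Ppargc1b. Here the intervals of miR-143-3p and miR-378a-3p overlapped that of miR-210-3p, so its order among these 3 was within counting error. Against the leading entry of each library, miR-199a-3p with miR-199b-3p, miR-210-3p held 13.5% as many counts in the MSC library, whereas in NIH3T3 exosomes it held 5.67% as many.

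Between the libraries, miR-210-3p was 2.19-fold higher in MSC exosomes on the scale of the deposited normalized values (2.12 to 2.27). The deposited log2 values were 13.89 and 12.76, and the log2 ratio, with 1 CPM of the mean miRNA total added to each level, was 1.13 (1.08 to 1.18). That scale multiplies every raw count of a library by a fixed factor before taking log2, 0.655 for MSC and 1.84 for NIH3T3. The raw counts themselves differed 6.15-fold. miR-210-5p had deposited log2 values of 5.03 and 5.20, and its log2 ratio was -0.16 (-0.94 to 0.66). On this scale that interval spans 0 and stays inside the bounds of 2-fold used to call a difference, and a smaller difference in either direction was not detectable at this depth.

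A call of higher or lower needed a difference of 2-fold or more. Among the 318 miRNAs that reached the floor, MSC exosomes had more of 108, a background of 34.0%, and less of 83 (26.1%), while 127 differed by less than 2-fold (39.9%). miR-210-3p was 1 of the 108, at number 101 by size of the ratio, which places it near the end of the higher group. The median log2 ratio of all 318 was 0.28. Among the 58 miRNAs with 1000 CPM or more in both libraries, where calls were rarer, 12 were higher (20.7%), 6 lower (10.3%) and 40 neither (69.0%), and 8 had a larger ratio than miR-210-3p. Of the 10 most abundant MSC entries, 2 had a larger ratio, miR-125b-5p (1.75) and miR-143-3p (1.90).

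**Figure D2:**
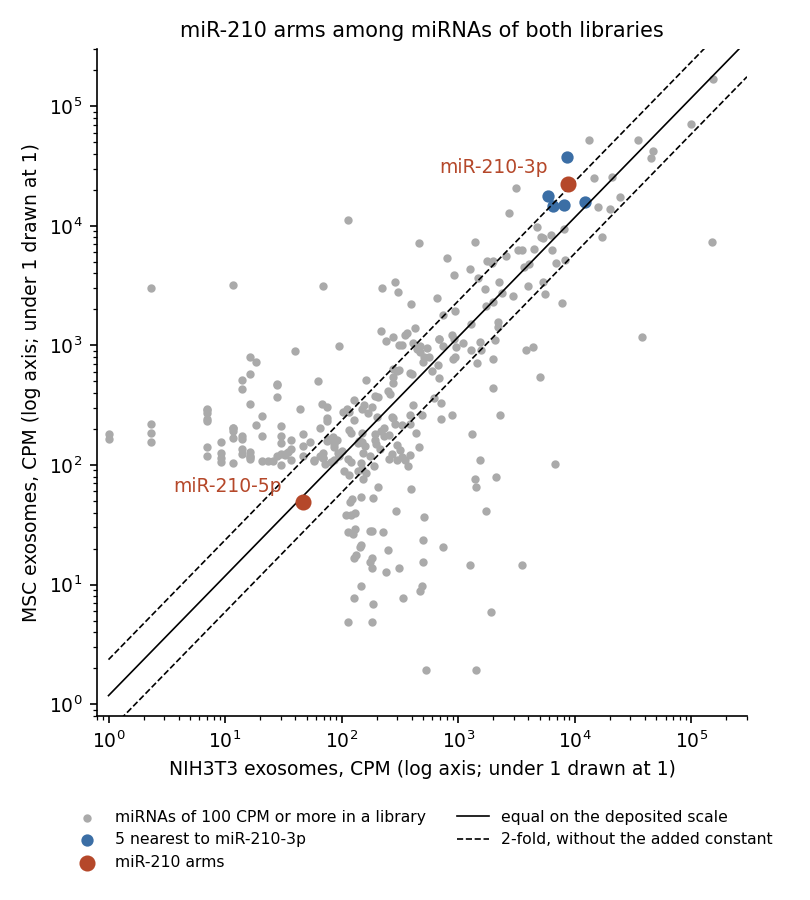
Level of each miRNA with 100 CPM or more in at least 1 library, NIH3T3 exosomes on the horizontal and MSC exosomes on the vertical log axis in CPM, with values under 1 drawn at 1. Also drawn are both miR-210 arms, the 5 miRNAs nearest to miR-210-3p, the line of equal deposited values and dashed lines 2-fold from it. miR-210-3p lies among abundant miRNAs just past the upper dashed line, and miR-210-5p lies on the line of equality within its error.

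The miRNAs most like miR-210-3p were taken as the 5 nearest by Euclidean distance of the log2 levels in the 2 libraries. They were miR-125a-5p (distance 0.59), miR-145a-5p (0.68), miR-186-5p (0.72), miR-143-3p (0.74) and miR-199a-5p (0.75). With only 2 libraries, likeness here means a similar level in each and nothing more. miR-145a-5p (1.36, 1.30 to 1.42) and miR-143-3p (1.90, 1.85 to 1.95) were also higher in MSC exosomes, while miR-125a-5p (0.66), miR-186-5p (0.12) and miR-199a-5p (0.93) were within 2-fold.

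Whether miR-210-3p passed 2-fold depended on the scaling. Its log2 ratio was 1.37 when each library was scaled by its miRNA total, 1.35 by the total of all entries including piRNAs, 1.39 by the miRNA total without miR-210 itself and 1.22 with edgeR's TMM factors. It fell under the bound of 1 when the ratios were centred on their median (0.86), and when the 10 most abundant miRNAs of each library, miR-210-3p among them, were left out of the totals (0.96). Scaling by the miRNA total also moved the median of the 318 miRNAs, from 0.28 to 0.51, and the centred value is the distance of miR-210-3p from that median. Under these settings the arm stayed on the higher side, between 0.86 and 1.39.

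Relative to single miRNAs that are often used as references the values differed. These, miR-16-5p and miR-191-5p, were chosen after the values had been seen. There were 0.876 counts of miR-210-3p for each count of miR-16-5p in MSC exosomes and 0.416 in NIH3T3 exosomes, a log2 ratio of 1.08. Relative to miR-191-5p there were 4.40 and 4.39, a log2 ratio of 0.0043. miR-191-5p itself had 5264 and 858 counts and a log2 ratio of 1.13 (1.02 to 1.23) on the deposited scale, the same size of difference as miR-210-3p. For miR-210-5p the ratio ran from -0.44 when centred to 0.09 by the miRNA total without miR-210, and it was -1.26 relative to miR-191-5p. The sign of the 5p difference was therefore not fixed by these data.

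**Figure D3:**
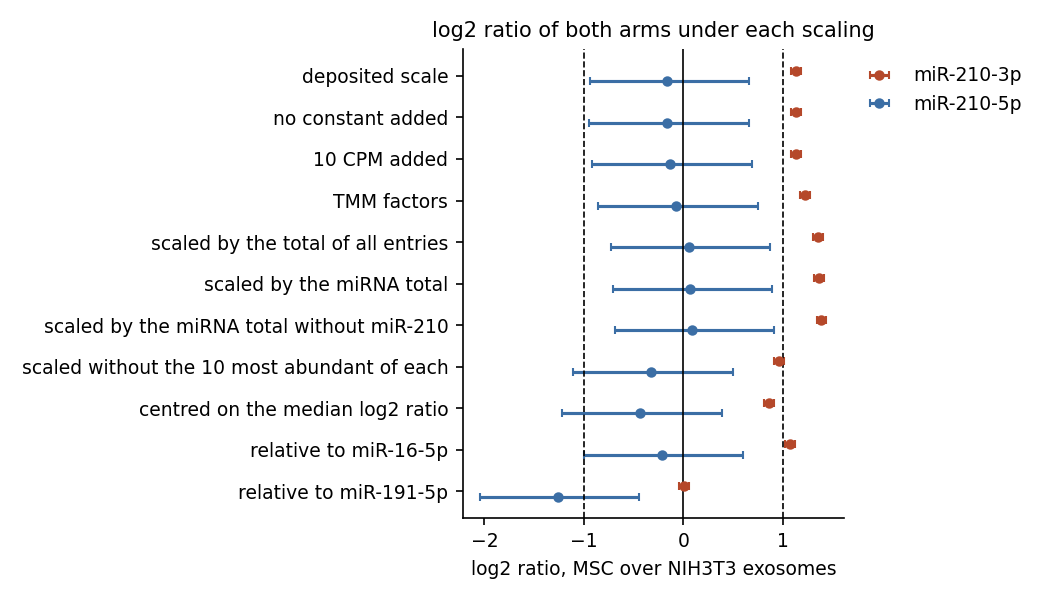
log2 ratio (MSC over NIH3T3) of both arms as deposited and under 10 other settings, with 95% counting intervals of the raw counts shifted by each scaling (the counting error of the reference miRNA not included), a solid line at 0 and dashed lines at 2-fold. miR-210-3p runs from 0.0043 relative to miR-191-5p to 1.39, and miR-210-5p has intervals that cross 0 except relative to miR-191-5p.

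The arms of a hairpin are counted in the same library, so the difference between them needs no scaling. In the MSC library 99.78% of the hairpin's 23237 counts came from 3p (Wilson interval 99.72 to 99.84), or 464 counts of 3p for each count of 5p. In the NIH3T3 library 99.47% of 3788 counts came from 3p (99.19 to 99.66), or 188 for each count of 5p. The preference for 3p was 2.46 times as strong in MSC exosomes (conditional exact interval 1.39 to 4.22), which is a gap of 1.30 between the arms' log2 ratios (0.47 to 2.08). The interval lies above 1 and rests on 50 and 20 counts of 5p. These are low counts for this data set, where the median miRNA entry had 22.5 counts in the MSC and 11 in the NIH3T3 library.

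In most other hairpins the arms were less uneven than in miR-210. Among other hairpins whose 2 arms each had a row and together reached 100 counts, the more abundant arm held a median of 92.2% over 136 hairpins in MSC exosomes and 95.3% over 103 hairpins in NIH3T3 exosomes. With at least 1000 counts the medians were closer to miR-210, at 97.9% over 61 hairpins and 98.8% over 32. In the MSC library 2 of the 136 were more uneven than miR-210, miR-221 (99.91% from 3p) and the liver miRNA miR-122 (99.83% from 5p), the latter within the interval of miR-210. In the NIH3T3 library 11 of the 103 were, among them miR-221, let-7i and miR-146b. Of these 11, miR-134, miR-181d, miR-182 and miR-26b lay within the interval of miR-210, and miR-500 and miR-615 had 0 counts of 5p. Only 6 other hairpins in MSC and 10 in NIH3T3 exosomes had at least as many counts as miR-210. Among these, miR-29a and miR-221 came nearest to it in 3p share. Their 3p shares were 99.66% and 99.91% in the MSC library. For NIH3T3 exosomes they were 98.89% and 99.98%. Next came miR-143 in the former (96.6%) and miR-423 in the latter (20.4%).

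A gap of this size between arms was not rare. In 51 other hairpins every arm had at least 20 counts in each library, a minimum set after the counts of miR-210-5p had been seen. The median gap between the log2 ratios of their arms was 0.74 in size, and 10 of the 51 (19.6%) had a larger gap than miR-210. The arms lay on opposite sides of 0 in 16 of them (31.4%), and both arms had the same call in 31.

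**Figure D4:**
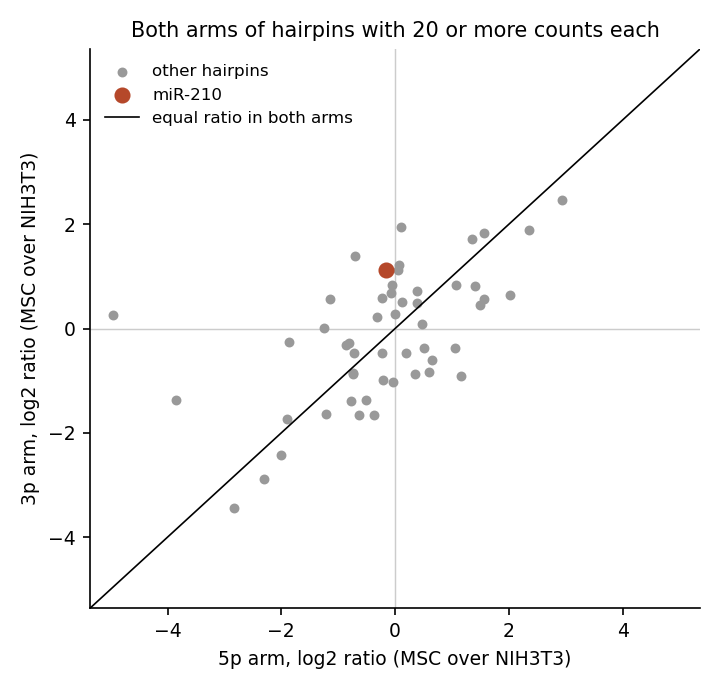
Deposited-scale log2 ratio (MSC over NIH3T3) of the 5p arm on the horizontal and the 3p arm on the vertical axis, for 52 hairpins with 20 or more counts of each arm in each library, miR-210 included. miR-210 lies 1.30 above the line of equal ratios, and 10 of the other 51 hairpins lie farther from that line.

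Other miRNAs linked to hypoxia lay on both sides of 0, as did miRNAs in general. Of 19 miRNAs reported as induced by hypoxia in human cancer cell lines, 17 had a row and all of these were over the floor. MSC exosomes had more of 3 of the 17, less of 5 and a difference under 2-fold in 9, against backgrounds of 34.0% and 26.1%, and the median log2 ratio was 0.27 beside 0.28 for all miRNAs. The higher ones were miR-125b-5p (1.75, 1.71 to 1.79), miR-192-5p, a p53-responsive miRNA (1.46, 1.20 to 1.73), and miR-27a-3p, which is clustered with miR-23a and miR-24 (1.11, 1.01 to 1.22). Of these 3, miR-27a-3p was no longer called under centring or without the 10 most abundant miRNAs.

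The members with lower levels in MSC exosomes were miR-181c-5p (8 and 55 counts, -4.09, -5.55 to -3.19), miR-181b-5p (-1.92), miR-181a-5p (-1.90), miR-195a-5p of the miR-15/16 family (-1.87) and miR-103-3p (-1.27). Within 2-fold were miR-21a-5p (-0.27), a repressor of Pdcd4, miR-23a-3p (0.34), miR-23b-3p (0.58), miR-24-3p (0.27), miR-26a-5p (-0.88), miR-26b-5p (0.69), miR-30b-5p (0.28), miR-93-5p (0.60) and miR-107-3p (-0.61). Of these 9, miR-26a-5p was called lower under centring (-1.15) and without the 10 most abundant miRNAs (-1.04), which made 6 lower members in each case. Of the 17, miR-125b-5p and miR-192-5p had a larger ratio than miR-210-3p, and miR-125b-5p was the member with more counts than miR-210-3p in each library.

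A second list held 9 miRNAs known from human or rodent cells to repress mRNAs of HIF subunits. Of these, 8 had a row and 6 were over the floor, of which 0 had a higher level in MSC exosomes, 3 had a lower level and 3 differed by less than 2-fold, with a median log2 ratio of -0.82. Over all 318 miRNAs 34.0% were higher and 26.1% lower, with a median of 0.28. The most abundant, miR-199a-5p, a repressor of Hif1a, was counted 15093 times in the MSC library and 2824 times in the other, close under the bound (0.93, 0.87 to 0.99) and over it at 1.16 under scaling by the miRNA total. miR-155-5p, of activated immune cells, had 113 and 662 (-4.03, -4.34 to -3.75). miR-17-5p (-1.87) and miR-20a-5p (-1.03), both of the miR-17-92 cluster, were lower too, the latter within 2-fold at -0.80 under scaling by the miRNA total. miR-22-3p was at 0.01 and miR-107-3p, which is in both lists, at -0.61.

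**Figure D5:**
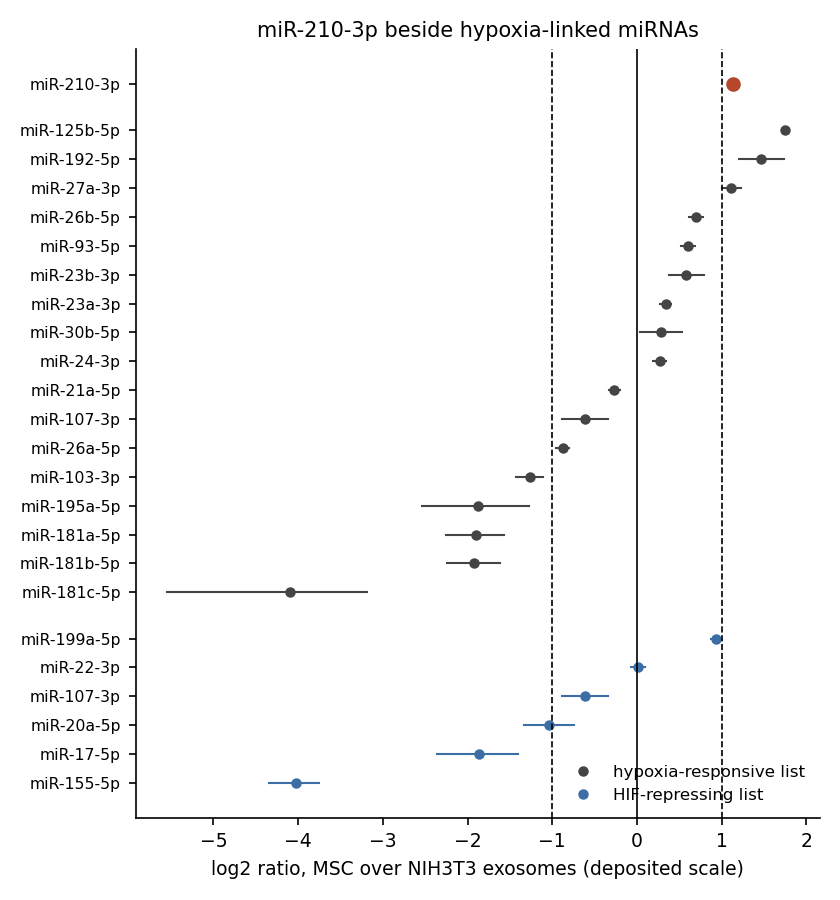
Deposited-scale log2 ratio (MSC over NIH3T3) for miR-210-3p, the 17 members of the hypoxia-responsive list and the 6 of the HIF-repressing list over the floor, with 95% counting intervals, a solid line at 0 and dashed lines at 2-fold. The members of the first list spread from -4.09 to 1.75 around miR-210-3p at 1.13, and those of the second from -4.03 to 0.93.

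Neighbouring miRNA genes gave few counts. Within 1 Mb of Mir210 on chromosome 7 the table placed the arms of miR-7063 and miR-3104, both on the plus strand, with between 4 and 39 counts in a library and under the floor. Base composition was compared as well, because both arms are GC-rich. Across the 280 miRNAs with a sequence, GC content and log2 ratio had a Spearman rho of -0.02, where miRNAs share 2 libraries and are not independent. Of the 56 with 60% GC or more, 18 were higher in MSC exosomes (32.1%, beside 34.0% of all 318) and 16 lower, with a median of -0.39 and quartiles of -1.39 and 1.77, and miR-210-3p at 1.13 lay between these quartiles.

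As a check of the labels, the 7 stromal miRNAs examined were all over the floor and made up 24.9% of MSC and 18.6% of NIH3T3 miRNA counts. miR-143-3p and miR-145a-5p were higher in MSC exosomes, and the other 5 were within 2-fold, so that the 2 of 7 lay near the background of 34.0% higher. Markers of blood, endothelial and epithelial cells had small shares. Of these, miR-142a-3p (-1.71) and miR-126a-3p (-1.36) were over the floor, and both were lower in MSC exosomes, as were 26.1% of all 318. Under the floor, the blood cell miRNAs miR-223-3p and miR-150-5p lay on the other side of 0, within 2-fold. miR-223-3p had 84 and 17 counts (0.80, 0.05 to 1.66), and miR-150-5p had 30 and 6 (0.79, -0.46 to 2.39). The erythroid miR-451a, also under the floor, had 27 and 26 counts, or 26.3 and 60.3 CPM (-1.40, -2.27 to -0.60), and miR-144-3p had no row. The 4 blood cell miRNAs with a row made up 0.0255% and 0.0443%. The endothelial miR-126a-3p made up 0.0328% and 0.0717%, and the 2 epithelial ones with a row 0.00496% and 0.00464%. The liver miRNA miR-122-5p, which also circulates in serum, had 9759 and 3486 counts and a log2 ratio of -0.00 (-0.06 to 0.05). miR-210-3p had more counts than miR-122-5p in each library. How much of either came from the serum in the medium was not tested.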

How the data were processed

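The data were 2 libraries of exosomal small RNA, prepared with an exoRNeasy kit and a QIAseq miRNA kit, per the labels' protocols, which also mention a microarray. The deposited raw counts were whole numbers, per the file headers unnormalized, and were treated as sequencing counts. Whether they count reads or molecular identifiers, and the aligner and counter, were not given in the sources used here. If they are reads, PCR copies make the intervals too narrow. The submitters' processing notes name mm10 as the genome build. The deposited normalized values were on a log2 scale, and all 1370 MSC and 1343 NIH3T3 entries whose scaled count was at least 1 equalled log2 of the raw count times 1 library factor within 0.001. How the authors set the factors was not given. Every entry had 10 or more counts in at least 1 library, so rarer miRNAs were not analysed here.

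The libraries held 2500459 and 1037147 counts, of which 1028186 and 431007 were on miRNAs. A count of 0 allows up to 3 counts, or 2.92 and 6.96 CPM. For ratios on the deposited scale 0.734, which stands for 1 CPM of the average miRNA total, was added to each level, with exact conditional intervals without that constant. Shares have Wilson intervals. The interval code was tested on simulated data. Arms were paired by name, without the 6 merged entries. edgeR 4.0.16 gave the TMM factors and ViennaRNA 2.7.2 the fold. Sequences are RefSeq's for GRCm38.p6 (1054 of 1214 miRNA entries matched).

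Members, lists and settings were chosen with earlier results of these data known. Besides the 2 arms, the miRNAs named were the 2 entries above and below miR-210-3p in each library, the 5 nearest in level, the 3 hairpins nearest in 3p share, list members over the floor, miRNAs within 1 Mb, and markers. Further ones named beside a count were chosen after their values were seen.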

Additional observations from a re-analysis of the deposited data

How the results depend on the processing

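Leaving out a replicate, or pairing, was not possible with 1 library in each group. The preference for 3p within each hairpin does not depend on scaling. On the deposited scale miR-210-3p was at 1.13, and it was at 1.37 scaled by the miRNA total, 1.35 by all entries, 1.39 without miR-210, 1.22 with TMM, 1.08 relative to miR-16-5p, 0.96 without the 10 most abundant miRNAs, 0.86 centred and 0.0043 relative to miR-191-5p. The added constant moved it by less than its counting interval. Without any scaling, raw counts gave 2.62 for 3p and 1.29 for 5p, with 206 miRNAs higher and 43 lower in MSC exosomes, 10 of them higher in the hypoxia list and 2 in the HIF list. miR-210-5p was at -1.26 relative to miR-191-5p, and under the other scalings and constants it stayed within its interval on the deposited scale. The 0 higher members of the HIF list became 1, miR-199a-5p, when scaled by the miRNA total, by all entries, without miR-210 or with TMM.

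The background counts of 108 higher and 83 lower became 282 and 309 with the floor at 10 CPM, 34 and 25 with it at 1000, and 289 and 309 with no floor. Centring, which sets the median ratio to 0, gave 97 and 99. Lower calls outnumbered higher ones in that setting, with the floor at 10 CPM and with no floor. The share of miR-210-3p was 0.927% in MSC and 0.363% in NIH3T3 exosomes with all entries as the denominator (ranks 13 and 21), 2.71% and 1.03% without the most abundant entry (ranks 9 and 15), and 2.36% and 1.06% without entries numbered above miR-1000, where the NIH3T3 rank was 15. Few counts limit how uneven a hairpin can be. Only hairpins with a row for each arm could be compared with miR-210. The percentage of these that were more uneven went from 1.47% to 3.28% in MSC and from 10.7% to 18.8% in NIH3T3 exosomes when 1000 counts were required. Depth limits the 5p arm most, with 50 and 20 counts.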
